A study of Mus musculus with 6 samples.

Results

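Metallothionein and S100 transcripts were followed in single cells sorted from the mouse amygdala. The 9 genes described here, of 32285 genes counted, were the metallothioneins *Mt1*, *Mt2* and *Mt3* and the S100 genes *S100a1*, *S100a6*, *S100a10*, *S100a13*, *S100a16* and *S100b*. They were chosen by name, with their levels in astrocytes, in pericytes and by *Igfbp2* status in these same cells already known, so those levels are given as a description with no test. Cell classes were set by unique molecular identifiers (UMIs), which count captured RNA molecules. An astrocyte had at least 20 *Slc1a2* and *Slc1a3* UMIs together and at most 3 *Vtn* and *Rgs5* UMIs. A pericyte had at least 10 *Vtn* and *Rgs5* UMIs and at most 5 *Slc1a2* and *Slc1a3* UMIs. Of 13546 barcodes, 8757 were astrocytes and 2260 were pericytes.

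The cells came from wild-type male C57BL/6N mice. In the paper's protocol, mice of all groups were first habituated to the conditioning chamber. NoFC mice were then not shocked, and FC mice received foot shocks in that chamber. NoFR mice were conditioned and then not returned to the chamber, and FR mice were returned to it for fear recall a day after conditioning. Each of the 3 libraries pooled several mice, with 4 mice per group in all, and a hashtag antibody marked the mouse of origin. All cells had been dissociated with the transcription and translation inhibitors actinomycin D, triptolide and anisomycin, stained for CD11b, CD45, O1 and the astrocyte surface antigen ACSA-2, and sorted.

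Metallothioneins are small, cysteine-rich proteins that bind zinc and copper and buffer the free metal in a cell. Their genes are classic targets of MTF1, a zinc-sensing transcription factor that binds metal response elements in their promoters, and *Mt3* is the member most specific to the brain. S100 proteins are small EF-hand proteins, most of which bind calcium and then dock onto partner proteins, and *S100b* is widely used as an astrocyte marker.

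The genes lie in 2 clusters and a lone locus (GENCODE vM21 coordinates, GRCm38). *Mt3* (chr8:94152607-94154146), *Mt2* (chr8:94172664-94173568) and *Mt1* (chr8:94179082-94180327) follow each other on the forward strand within 27721 bases. On chromosome 3, *S100a1* (chr3:90511034-90514392, reverse strand) and *S100a13* (chr3:90514435-90524581, forward strand) start 43 bases apart and run in opposite directions. *S100a16* (chr3:90537254-90543151), *S100a6* (chr3:90612882-90624181) and *S100a10* (chr3:93555080-93564643) lie beyond them on the forward strand, and *S100b* is on chromosome 10 (chr10:76253853-76261159, forward strand). All values below are 3′ UMI counts over the whole gene, with no correction for length, so levels were compared between cells and not between genes.

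The 250 bases before each metallothionein start are shown because the 3 genes rose and fell together from cell to cell, as described further on. They are RefSeq sequences of GRCm38.p6, and capitals mark cores of the metal response element, written TGCGCNC or TGCACNC and searched on both strands.
Mt1, chr8:94178839-94179088, forward strand: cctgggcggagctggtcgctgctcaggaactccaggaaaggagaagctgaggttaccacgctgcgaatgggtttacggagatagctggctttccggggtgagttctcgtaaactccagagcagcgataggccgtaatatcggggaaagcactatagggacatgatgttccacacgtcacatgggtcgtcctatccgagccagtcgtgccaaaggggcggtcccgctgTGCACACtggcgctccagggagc
Mt2, chr8:94172368-94172617, forward strand: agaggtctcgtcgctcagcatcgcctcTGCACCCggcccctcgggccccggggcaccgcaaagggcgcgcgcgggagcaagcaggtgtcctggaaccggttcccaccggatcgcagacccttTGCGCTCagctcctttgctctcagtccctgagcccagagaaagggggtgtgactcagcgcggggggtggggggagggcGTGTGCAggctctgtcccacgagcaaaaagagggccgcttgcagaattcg
Mt3, chr8:94152357-94152606, forward strand: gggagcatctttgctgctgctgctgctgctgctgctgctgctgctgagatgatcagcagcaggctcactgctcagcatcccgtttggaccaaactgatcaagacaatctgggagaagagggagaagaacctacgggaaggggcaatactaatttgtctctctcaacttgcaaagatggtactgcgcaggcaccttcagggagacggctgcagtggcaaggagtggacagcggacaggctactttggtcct
The *Mt2* window held 3 cores, at bases −223 to −217, −128 to −122 and, on the reverse strand, −50 to −44 from the start. The *Mt1* window held 1 core at −23 to −17, and no core was found in the *Mt3* window. Of the S100 genes, 1 of the *S100a16* windows held 1 core on the reverse strand, at −179 to −173. Of 32851 promoter windows of this length, 21.4% held at least 1 core and 1.26% held 3 or more. GENCODE also lists *Mt1* starts 122 and 152 bases, *Mt2* starts 46 and 242 bases and an *Mt3* start 139 bases after the RefSeq start. Bases between the RefSeq start and those later starts were not searched. Windows were found for 8 of the 9 genes, all but *S100a10*, and the letters TATAAA, present in 12.4% of all windows, were in none of them. The counts of cores and of TATAAA therefore cover the promoters of the later *Mt1*, *Mt2* and *Mt3* starts only in part.

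The bases between the *S100a1* and *S100a13* starts are shown because they lie upstream of both genes.
S100a1 to S100a13, chr3:90514393-90514434, forward strand: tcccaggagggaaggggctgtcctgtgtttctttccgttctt
These 42 bases are read towards *S100a13*, and their complement reads towards *S100a1*.

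The libraries held 42350059, 31700569 and 33368825 gene UMIs in 5287, 3631 and 4628 barcodes, and 18 barcodes were shared between libraries. Astrocytes numbered 3557, 2503 and 2697 by library, with median depths of 9667, 10281 and 9832 UMIs. Pericytes numbered 880, 664 and 716, with 4833, 5205.5 and 5028.5 UMIs. Both labels held against markers that the UMI rule had not used. The 11 astrocyte markers summed to 12760 to 12860 CPM (UMIs scaled to the summed gene UMIs of the class and library) in astrocytes and 1130 to 1215 in pericytes, and the 9 pericyte markers to 172.9 to 193.2 and 13050 to 13200 CPM. Pericytes also carried 150.9 to 209.1 CPM of smooth muscle, 134.0 to 143.1 CPM of endothelial and 456.5 to 474.8 CPM of ependymal list genes. Single genes carried the last 2 sums: *Flt1* (131.0 CPM) the endothelial one and *Rarres2* (463.5 CPM) the ependymal one, with *Foxj1* at 0.1789 CPM and *Ccdc153* at 0. Free RNA gives every droplet some UMIs of abundant genes, so each pericyte level below is set beside astrocyte markers. Of the 11 astrocyte markers, *Aqp4*, *Gja1*, *Gjb6*, *Slc4a4*, *Cldn10* and *Aldoc* stood in pericytes at 0.511% to 1.79% of their astrocyte level. *Ntsr2* (1.55% to 2.27%) and *Mlc1* (1.95% to 2.25%) were slightly higher, and *Plpp3* (9.37% to 10.6%), *Ndrg2* (11.5% to 12.9%) and *Atp1b2* (79.0% to 85.1%) far higher. *Atp1b2* encodes the ACSA-2 antigen that the cells were stained for before sorting. At 676.5 CPM it made up most of the summed astrocyte markers in pericytes.

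All 9 genes were higher in astrocytes than in pericytes in each of the 3 libraries, as were 33.0% of the 13049 genes with at least 10 UMIs in both classes. Their median log2 difference was 4.96, against −0.25 over all those genes. This contrast was one the genes were chosen on. The metallothioneins together made up 0.589% to 0.605% of all astrocyte UMIs and the 6 S100 genes 0.0928% to 0.101%.

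*Mt1*, a broadly expressed metallothionein, stood at 3107, 3068 and 2983 CPM in the astrocytes of libraries 1, 2 and 3 (3053 ± 63.45, SD, n = 3 libraries). In pericytes it was 91.0, 99.47 and 104.7 CPM (98.38 ± 6.902, n = 3). Of astrocytes 92.7%, and of pericytes 33.7%, held an *Mt1* UMI. With every cell thinned to 3000 UMIs, which kept 8216 astrocytes and 2103 pericytes, 11.4% of astrocytes and 76.7% of pericytes had none.

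*Mt3*, which restrains neurite growth in culture, was at 2393, 2429 and 2405 CPM in astrocytes (2409 ± 18.22, n = 3) and at 12.68, 11.02 and 19.06 CPM in pericytes. Its pericyte level was 0.454% to 0.792% of the astrocyte level, at the low end of the 11 markers or under it. Whether these UMIs are background from free RNA was not tested. *Mt2*, the other broadly expressed member, was at 496.7, 556.4 and 505.5 CPM in astrocytes (519.5 ± 32.21, n = 3) and 13.36, 15.54 and 16.1 CPM in pericytes. *Mt1* and *Mt2* pericyte levels, at 2.93% to 3.51% and 2.69% to 3.19% of the astrocyte level, were above 8 of the 11 astrocyte markers in every library and below *Plpp3*, *Ndrg2* and *Atp1b2*, so these markers do not settle whether they are background. *Mt1*, *Mt2* and the other family members are similar in sequence, and how the authors' counting treated reads shared between them was not tested.

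**Figure D1:**
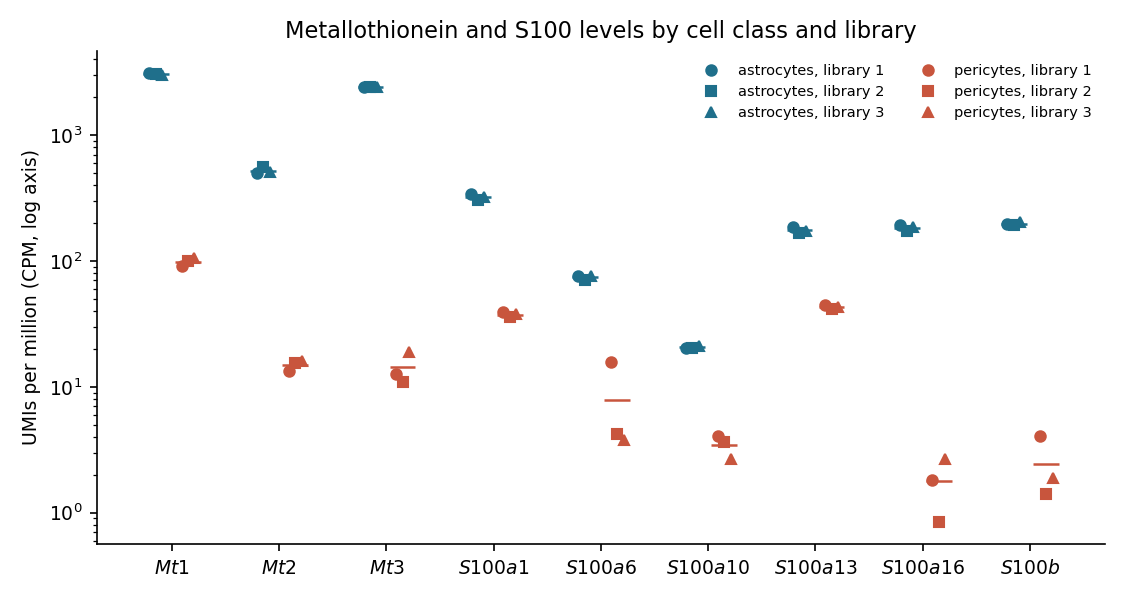
Levels of the 9 genes (CPM, log axis) in astrocytes and pericytes, 1 point per library and a short bar for the mean of 3 libraries. Each gene was lower in pericytes in all 3 libraries, from *S100a13* at 23.6% to 25.1% of the astrocyte level to *Mt3* at 0.454% to 0.792%.

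Of the S100 genes, *S100b* and *S100a16* were nearly absent from pericytes. *S100b*, which astrocytes also secrete, was at 196.4, 193.2 and 203.6 CPM in astrocytes (197.7 ± 5.364, n = 3) and 4.075, 1.413 and 1.879 CPM in pericytes. A UMI was present in 71.7% of astrocytes and 1.28% of pericytes. *S100a16*, an EF-hand protein of many tissues, was at 194.2, 172.6 and 185.3 CPM (184.1 ± 10.86, n = 3) against 1.811, 0.8478 and 2.684 CPM, with a UMI in 67.7% and 0.885% of cells. The pericyte levels, 0.731% to 2.08% and 0.491% to 1.45% of the astrocyte level, lay within or under the range of the 8 lower astrocyte markers in each library. Whether they are background was not tested.

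The divergent pair *S100a1* and *S100a13* kept a larger share of its astrocyte level in pericytes than *S100b* and *S100a16*. So did *S100a6* and *S100a10*, described next, so this is not particular to the pair. *S100a1*, best known as a regulator of calcium release channels in muscle, was at 339.3, 304.7 and 323.2 CPM in astrocytes (322.4 ± 17.34, n = 3) and 39.16, 35.61 and 37.58 CPM in pericytes. The pericyte share was 11.5%, 11.7% and 11.6% by library, near that of the astrocyte marker *Ndrg2*. *S100a13*, which takes part in the release of the growth factor FGF1 and binds copper, was at 187.9, 166.5 and 173.1 CPM (175.8 ± 10.94, n = 3) against 44.37, 41.82 and 43.21 CPM. Its share was 23.6%, 25.1% and 25.0%, above all 11 astrocyte markers but *Atp1b2*, and 63.9% of astrocytes and 17.9% of pericytes held a UMI.

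*S100a6* and *S100a10* were sparser. *S100a6* (calcyclin) was at 76.5, 70.84 and 76.26 CPM in astrocytes (74.53 ± 3.201, n = 3), with a UMI in 42.5% of cells. In pericytes it was 15.62, 4.239 and 3.758 CPM, in 1.37% of cells, so library 1 stood apart. The pericyte share was 20.4%, 5.98% and 4.93%, above *Ntsr2* and *Mlc1* in each library and above *Ndrg2* in library 1 only. *S100a10*, the partner of annexin A2 that has lost calcium binding, was at 20.51, 20.48 and 21.21 CPM in astrocytes (20.73 ± 0.4139, n = 3) and 4.075, 3.674 and 2.684 CPM in pericytes. Its pericyte share was 19.9%, 17.9% and 12.7%, from 41 pericyte UMIs in all. In each library this was above *S100a1* and the marker *Plpp3* and far below *Atp1b2*.

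The *S100a6* counts of pericytes came from few barcodes. Of 98 UMIs in all pericytes, 58, 6 and 6 by library were in 5, 7 and 6 barcodes with at least 20 smooth muscle marker UMIs (*Acta2*, *Tagln*, *Myh11*) or 10 stromal marker UMIs (*Dcn*, *Col1a1*, *Lum*). A single barcode of library 1 held 31 of that library's 69 UMIs, beside 103 UMIs of smooth muscle markers and 61 of pericyte markers. Without those barcodes, a choice made after seeing the data, the pericyte level was 2.52, 2.572 and 2.18 CPM. Library 1 then no longer stood apart. Over all barcodes low in *Slc1a2* and *Slc1a3*, 14 were rich in smooth muscle markers, 13 of them pericytes by the UMI rule, and these 14 held 69 *S100a6* UMIs.

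**Figure D2:**
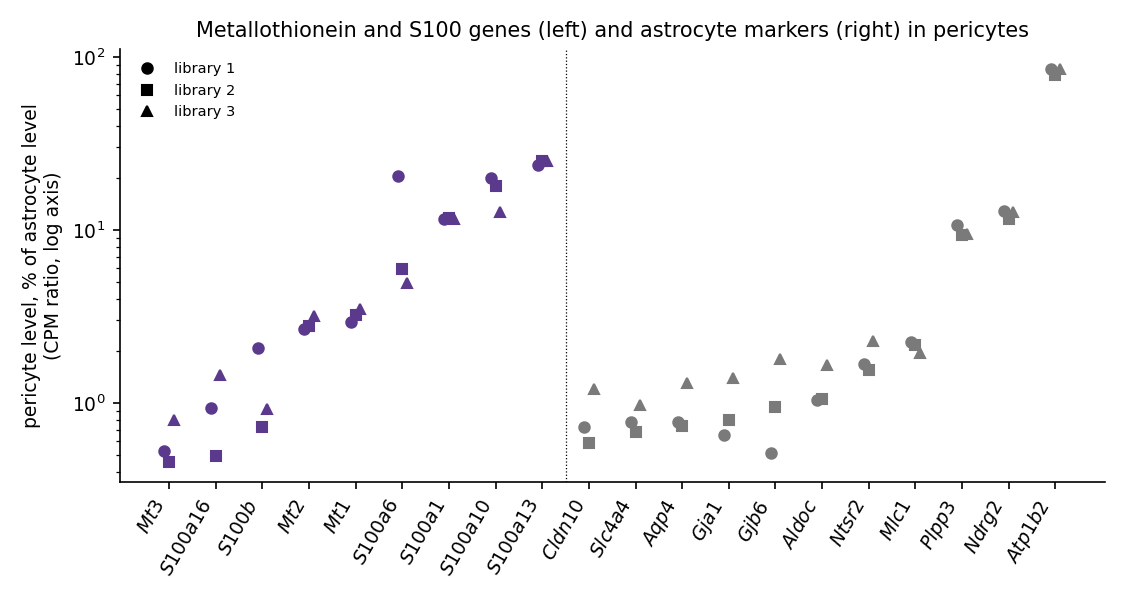
Pericyte level as a percent of the astrocyte level (CPM ratio, log axis) for the 9 genes on the left and 11 astrocyte markers on the right, 1 point per library. *Mt3*, *S100a16* and *S100b* lie among the lower markers, *S100a1* and *S100a13* lie higher with little spread between libraries, and *S100a6* in library 1 lies at 20.4% against 5.98% and 4.93%. *S100a10*, from few UMIs, lies at 19.9%, 17.9% and 12.7%.

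Other genes of both families were also counted. *S100a11*, which binds annexin A1, went the other way, at 185.5 ± 6.004 CPM in pericytes and 2.382 ± 0.8764 CPM in astrocytes (n = 3 libraries), with a UMI in 53.2% and 2.16% of cells. *S100a4* was at 7.01 ± 0.9935 CPM in astrocytes and 1.981 ± 3.189 CPM in pericytes, in 6.21% and 0.177% of cells. *S100pbp*, which encodes an S100P-binding protein and no S100 protein, was at 39.79 ± 1.205 and 30.87 ± 3.993 CPM. *Mt4*, *S100a5*, *S100a9* and *S100z* had 0 UMIs in both classes.

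Of the 23 listed genes of zinc and copper handling, 22 had at least 10 UMIs in both classes, and 5 were higher in astrocytes and 14 in pericytes in all 3 libraries. Of all 13049 genes with such counts, 4311 were higher in astrocytes and 6849 in pericytes in all 3 libraries. Named after their values were seen, the zinc importer gene *Slc39a12* was at 639.6 ± 32.77 CPM in astrocytes and 5.507 ± 1.511 in pericytes, whereas *Cp*, encoding the copper ferroxidase ceruloplasmin, was at 1.871 ± 1.44 and 1051 ± 46.55 CPM. *Mtf1* was at 18.43 ± 0.4441 CPM in astrocytes and 26.5 ± 1.26 in pericytes. Of 13 such S100 partner genes, 11 were higher in pericytes in all 3 libraries, among them *Anxa2* at 98.58 ± 5.561 against 1.144 ± 0.2178 CPM. The 1 gene higher in astrocytes was *Fgf1*, at 110.0 ± 3.603 CPM against 21.69 ± 2.888 CPM.

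Levels varied widely from one astrocyte to the next. In cells thinned to 3000 UMIs, *Mt1* had a median of 8 UMIs, with 0 at the 5th and 25 at the 95th percentile, and a variance 7.86 times its mean. *Mt3* had a median of 6 UMIs, the same percentiles at 0 and 19, and a variance 5.92 times its mean. Counting alone gives a ratio near 1. The ratio was 1.95 for *Mt2*, 1.76 for *S100a1* and 1.35 for *S100b*, and 1.1 for *S100a10*, which had a mean of only 0.0613 UMIs.

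The members moved together from cell to cell. Among 10381 genes found in at least 5% of the astrocytes of every library, the genes most like *Mt1* were *Mt3* (mean Pearson r of 0.899 over 3 libraries), *Aldoc*, a glycolytic aldolase (0.862), and *Cst3*, the protease inhibitor cystatin C (0.843). *Mt3* was in turn most like *Mt1*, *Aldoc* (0.857) and *Cst3* (0.846), and *Mt2* most like *Mt1* (0.773), *Mt3* (0.731) and *Aldoc* (0.713). *Mt3* was also the gene most like *S100a1* (0.721), *S100a13* (0.601), *S100a16* (0.589), *S100b* (0.549) and *S100a6* (0.414). The next most like them was *Mt1* for all but *S100a6*, whose next were *Fth1* (0.411), a ferritin subunit, and *Mt1* (0.41). For *S100a10* the highest r was 0.245, with the ubiquitin gene *Ubb*, and from counts this sparse nothing is read. These r values are across single cells of the same library, on the natural log of 1 plus UMIs per 10000, and describe cells that share a pool and differ in depth.

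Astrocytes were also divided into lowest, middle and highest tertiles, 3 groups of like size, by their summed *Mt1*, *Mt2* and *Mt3* UMIs after thinning. From lowest to highest, the 6 S100 genes together went from 313.8 to 359.6 CPM over the libraries, through 899.8 to 939.5, to 1660 to 1807 CPM. *S100b* went from 87.32 to 97.66 CPM in the lowest tertile to 313.9 to 354.9 CPM in the highest. *Aldoc* went from 599.2 to 711.4 CPM to 3173 to 3397 CPM, and *Cst3* from 3650 to 4568 to 14930 to 15880 CPM. Ribosomal protein genes, named by *Rpl* and *Rps*, rose in the same order, from 0.542% to 0.717% of UMIs to 2.04% to 2.16%. *Slc1a2* stayed at 8026 to 8581 CPM in the lowest and 7626 to 7952 in the highest tertile. *Malat1*, a nuclear RNA, was at 87630 to 91330 CPM in the lowest, 103100 to 108500 in the middle and 82840 to 91180 in the highest tertile. Median depth before thinning was 9816.5 to 10450 UMIs in the lowest and 9765 to 10340 in the highest tertile. So the astrocytes low in metallothioneins were also low in S100, *Aldoc*, *Cst3* and ribosomal protein gene UMIs and had like depth, and what part any of these has in the others was not tested.

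**Figure D3:**
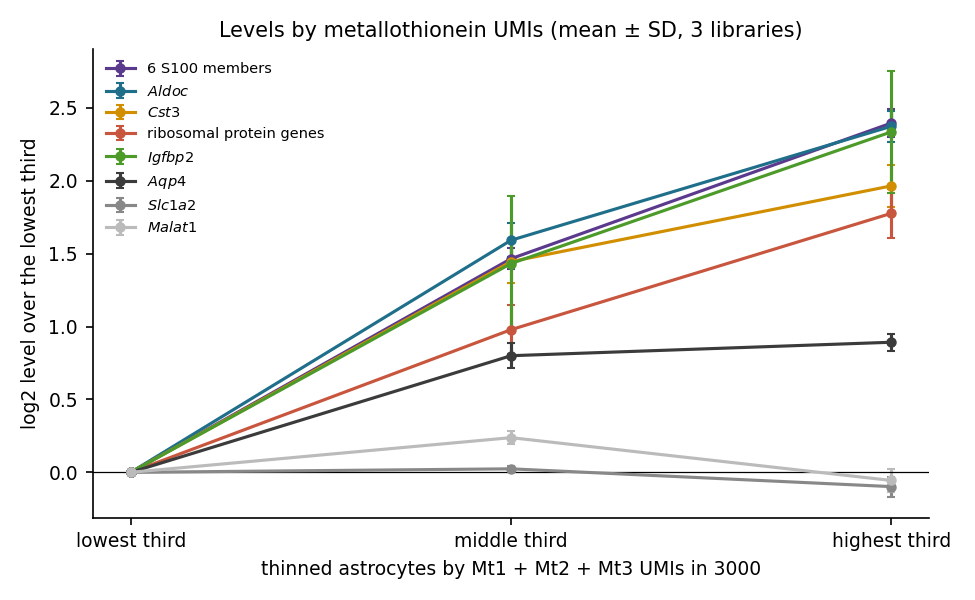
Level relative to the lowest tertile (log2) in astrocytes grouped by metallothionein UMIs of 3000, mean ± SD of 3 libraries. The 6 S100 genes, *Aldoc*, *Igfbp2*, *Cst3* and the ribosomal protein genes climb over both steps, and *Aqp4* levels off. *Slc1a2* and *Malat1* stay near 0, with *Malat1* highest in the middle tertile.

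Depth itself had a smaller relation to the members. Between the highest and lowest tertile of astrocytes by UMIs, *Mt3* differed by −0.31 ± 0.0694 on the log2 CPM scale (SD, n = 3 libraries), *S100b* by −0.35 ± 0.0767 and *S100a10* by 0.13 ± 0.109. Between the 241, 163 and 217 astrocytes with at least 6% mitochondrial UMIs and the others, the log2 difference was largest for *S100a1*, at 0.56 ± 0.0694, and was 0.195 ± 0.0374 for *Mt2*. For *S100a10* it was −0.192 ± 1.07. These genes were picked after their values were seen. They include the lowest and the highest of the 9 genes in both contrasts, whereas *Mt3* by depth and *Mt2* by mitochondrial share are not extremes. Those cells were shallow, with median depths of 2199, 2137 and 2277 UMIs, and the part of depth in this difference was not tested.

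*Igfbp2* encodes a binding protein of insulin-like growth factors. A count of 0 does not show that a cell lacks its RNA, since the cells with 0 were also shallower. The 1656 astrocytes with at least 2 *Igfbp2* UMIs (691, 459 and 506 by library) were set beside the 6323 with 0 (2545, 1823 and 1955), with *Igfbp2* itself left out of the totals. All 9 genes were higher in the *Igfbp2* cells in each library, as were 29.3% of 14995 genes. The genes were chosen on this contrast too. Median depths were 12235, 12725 and 12549.5 UMIs with *Igfbp2* and 8893, 9651 and 9043 without.

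*Mt1* was at 4204, 4217 and 3956 CPM with *Igfbp2* and 2654, 2656 and 2587 CPM without, a mean log2 difference of 0.65 ± 0.0304 (SD, n = 3 libraries). *Mt3* was at 3097, 3188 and 3146 against 2096, 2155 and 2104 CPM (0.57 ± 0.00924), and *Mt2* at 645.4, 747.5 and 641.1 against 436.7, 488.2 and 449.1 CPM (0.56 ± 0.0505). No library of one status reached the level of a library of the other. Of the S100 genes, *S100a13* differed by 0.63 ± 0.0872, *S100a16* by 0.62 ± 0.0604, *S100a1* by 0.60 ± 0.0604, *S100b* by 0.54 ± 0.0625, *S100a6* by 0.49 ± 0.0705 and *S100a10* by 0.42 ± 0.135. The median was 0.57, against −0.00936 over all genes.

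The astrocyte markers did not share one difference. *Aldoc* differed by 0.645 ± 0.0288, *Aqp4* by 0.49 ± 0.0474, *Atp1b2* by 0.20 ± 0.0345 and *Gja1* by 0.01 ± 0.0888. *Cst3*, which was not among the listed markers, differed by −0.02 ± 0.02. *Agt*, which encodes angiotensinogen, was lower with *Igfbp2*, by −1.64 ± 0.0426. Ribosomal protein genes took 1.52%, 1.41% and 1.42% of UMIs with *Igfbp2* and 1.45%, 1.25% and 1.32% without. Of the 23 zinc and copper genes, 10 were higher and 5 lower in all 3 libraries, and of 13 S100 partner genes 8 were higher and 2 lower. Of all 14995 genes, 4400 were higher and 4535 lower.

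**Figure D4:**
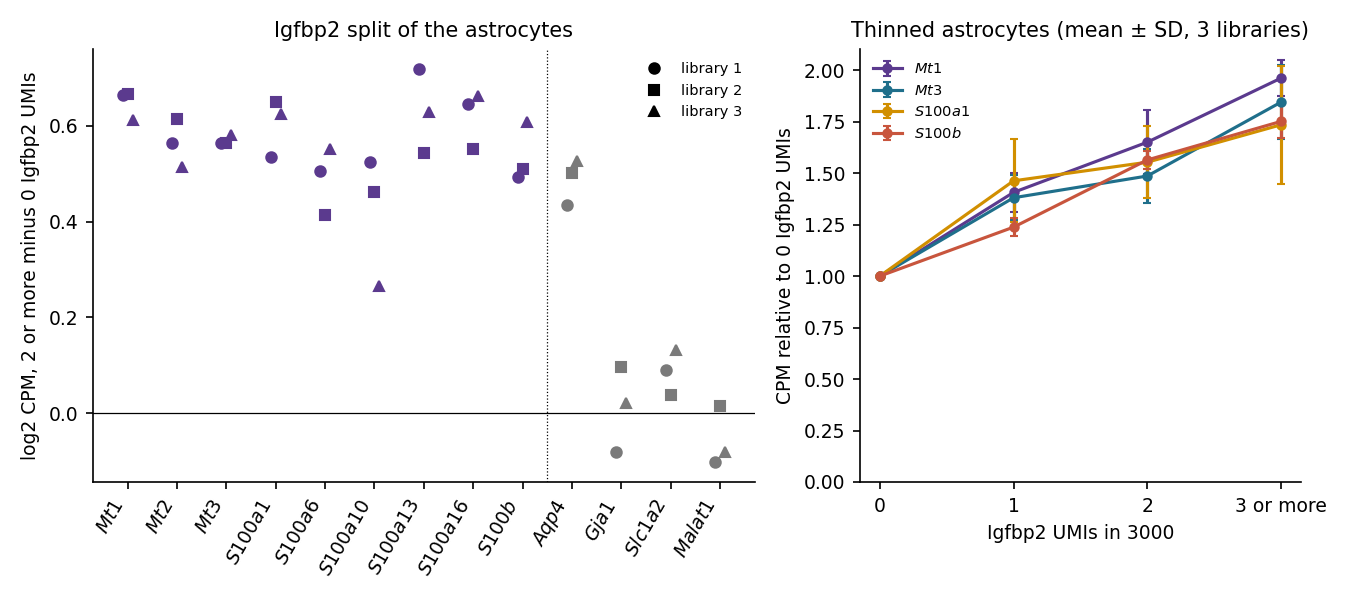
Left, log2 CPM in astrocytes with 2 or more *Igfbp2* UMIs minus those with 0, 1 point per library, for the 9 genes and 4 genes of comparison. Right, level relative to 0 *Igfbp2* UMIs in astrocytes thinned to 3000 UMIs (mean ± SD of 3 libraries): *Mt1* went from 2896 CPM at 0 to 5682 CPM at 3 or more *Igfbp2* UMIs and *S100b* from 193.6 to 338.8 CPM. These 2 genes rose at each step in all 3 libraries, *S100a1* in 2, *Mt3* in 1 and *S100a6*, not drawn, in 0. The last step held 99, 42 and 35 cells by library.

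The difference depended on which astrocytes were compared, in splits chosen after seeing the data. It was larger among astrocytes with no *Agt* UMI (median of the 9 genes 0.853) and among those below the median *Malat1* share (0.739) than among those above it (0.408). Over all genes these medians were −0.0167, 0.00349 and −0.00542. Among astrocytes below their library's median ribosomal share, the median was 0.695 (0.0189 over all genes), with all 9 genes higher in all 3 libraries, as were 3697 of 13380 genes. Above that share, the median was 0.29 (−0.0284 over all genes). Ribosomal protein genes there took 1.96%, 1.82% and 1.93% of UMIs with *Igfbp2* and 2.46%, 2.12% and 2.27% without, the reverse of the lower group. In the upper group, 7 of the 9 genes were higher in all 3 libraries, as were 3059 of 14042 genes. *S100a10*, at −0.00569, and *S100a6*, at 0.132, were the exceptions. By mouse, in the 16 mice with 8 to 42 *Igfbp2* astrocytes each, *Mt3* and *S100a1* were higher in 16, *Mt1*, *S100a13* and *S100a16* in 15, *S100a6* and *S100b* in 14, *Mt2* in 13 and *S100a10* in 10.

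The behavioural groups were compared with mice as replicates. The contrasts named above as known when the genes were chosen were cell class and *Igfbp2* status. Genes and lists were, however, chosen with earlier results of these data known. Whether that choice was independent of the behavioural groups is therefore not established. Hashtags gave a mouse to 897, 459 and 521 astrocytes of the 3 libraries and to 432, 328 and 200 pericytes. A mouse had 45 to 228 astrocytes and 38 to 133 pericytes. Library 1 held 2 mice of each group, and libraries 2 and 3 held 2 FC and 2 NoFR mice, respectively, and 1 NoFC and 1 FR mouse each. For 4 mice against 4, an exact permutation test (2-sided) cannot give a p below 0.0286. It shuffled mice freely across libraries and so took no account of the library.

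In astrocytes, 0 of the 9 genes passed an adjusted p of 0.05 between groups, and neither did any other gene. Of 10100 genes tested with edgeR, 0.0% passed an adjusted p of 0.05 in each of the 6 pairs of groups. At an unadjusted p under 0.05 the shares of all genes were 3.99% for FC, 6.28% for NoFR and 4.36% for FR, each set against NoFC. They were 4.32% for NoFR and 3.31% for FR against FC, and 3.26% between FR and NoFR, and the count of the 9 genes was 0 in each pair. DESeq2 also called 0. Over these 54 values, log2 fold changes ran from −0.118 to 0.201, with 95% bounds between −0.518 and 0.586, and the lowest adjusted p was 0.943.

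The groups overlapped for every gene and pair. Shown as examples picked after their values were seen are *Mt1* and *S100b*. *Mt1*, in CPM on TMM-scaled depths, was at 2459, 3993, 2406 and 2967 in the 4 NoFC mice and 3030, 2840, 3516 and 3214 in FC mice. It was 2940, 3326, 3210 and 2976 in NoFR and 3564, 3571, 2772 and 2666 in FR mice. Group means were 2956 ± 736, 3150 ± 287.8, 3113 ± 185.7 and 3143 ± 491.8 CPM (SD, n = 4 mice). *S100b* was at 149.7, 246.5, 166.6 and 213.2 CPM in NoFC, 186.0, 193.4, 214.3 and 160.4 in FC, 190.9, 243.8, 199.7 and 159.9 in NoFR and 219.6, 225.7, 197.2 and 172.1 in FR mice. NoFC mouse 2 held the highest value of the 16 mice for *Mt1*, *Mt2*, *Mt3*, *S100a1*, *S100a6*, *S100a16* and *S100b*, and NoFC mouse 1 or 3 the lowest value for the same genes. Within library 1 the *Mt1* mean was 2935 CPM in FC and 3226 CPM in NoFC mice, and within library 2 it was 3365 and 2406 CPM, so the direction differed.

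Over all 16 mice the lowest, median and highest values were 376.2, 522.4 and 653.4 CPM for *Mt2* and 1940, 2362 and 3210 CPM for *Mt3*. They were 259.1, 309.0 and 445.9 CPM for *S100a1*, 125.6, 170.4 and 247.9 for *S100a13*, and 139.0, 169.7 and 231.5 for *S100a16*. The sparser *S100a6* ran from 55.66 over 74.08 to 95.2 CPM and *S100a10* from 13.95 over 20.21 to 26.11 CPM. No gene reached 2-fold between the highest and lowest mouse, the ratio being 1.65 for *Mt3* and *S100b* and 1.97 for *S100a13*.

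**Figure D5:**
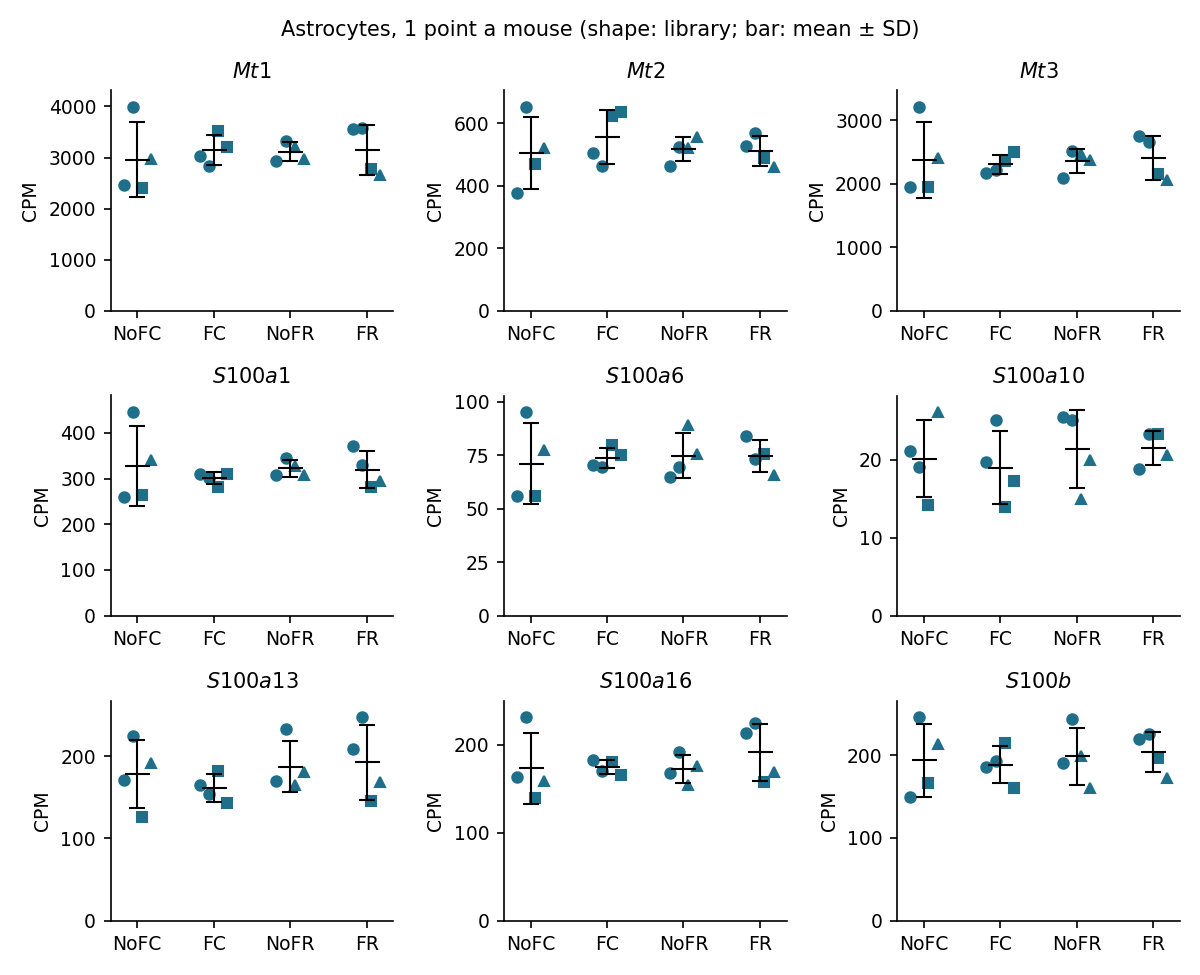
Astrocyte level (CPM on TMM-scaled depths) of the 9 genes in each of 16 mice by group, with the mean ± SD of 4 mice and the point shape for the library. The groups overlap for every gene, and *Mt1* in NoFC mice spans 2406 to 3993 CPM, the whole range of the 16 mice.

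In pericytes, where the members' counts were low, 0 of the 9 genes passed an adjusted p of 0.05 in any pair with edgeR, and DESeq2 also called 0. Over 6377 genes, 0.0% passed for FC, 0.957% for NoFR and 0.047% for FR when set against NoFC. It was 0.345% for NoFR and 0.0% for FR against FC, and 0.0784% between FR and NoFR. At an unadjusted p under 0.05 these shares were, in the same order, 4.39%, 8.92%, 5.8%, 7.56%, 4.86% and 6.02%, and 7 of 54 values of the 9 genes passed that mark. In sums of this kind, fewer molecules per cell and a different mix of cells cannot be told apart.

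*Mt2* was at 18.27, 19.27, 22.35 and 23.96 CPM in the pericytes of NoFC mice, from 6, 5, 15 and 5 UMIs. In NoFR mice it was 8.861, 5.974, 3.584 and 9.227 CPM, from 2, 1, 1 and 2 UMIs. The groups did not overlap (exact permutation p = 0.0286, the smallest these mice can give), but at a log2 fold change of −1.57 (SE 0.694, 95% interval −2.96 to −0.18) the adjusted p was 0.46. The value was −2.57 with a lower hashtag quantile and −1.01 without the mitochondrial filter. *Mt1* was at 112.6, 146.5, 123.6 and 148.6 CPM in NoFC and 79.75, 77.66, 82.44 and 143.0 CPM in NoFR mice, a log2 fold change of −0.48 (SE 0.23, adjusted p = 0.54, exact permutation p = 0.0857). NoFR mouse 4 lay among the NoFC mice. Within library 1 the *Mt1* means were 78.7 CPM in NoFR and 129.6 CPM in NoFC mice, and within library 3 they were 112.7 and 148.6 CPM. For *Mt2* they were 7.418 and 18.77 CPM in library 1 and 6.405 and 23.96 CPM in library 3.

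*S100a13* was at 62.03, 64.29, 44.93 and 69.43 CPM in the pericytes of FR mice (14, 12, 13 and 20 UMIs). In FC mice it was 37.79, 35.36, 23.24 and 37.42 CPM (11, 11, 8 and 11 UMIs). These groups did not overlap either (exact permutation p = 0.0286, the smallest possible), with a log2 fold change of 0.917 (SE 0.333, 95% interval 0.25 to 1.58) and an adjusted p of 0.83. Within library 1 the means were 63.16 and 36.58 CPM, and within library 2 they were 44.93 and 30.33 CPM. Groups did not overlap in 2 further pairs, whose unadjusted p was not under 0.05. *Mt1* was lower in all FR pericyte sums (97.47, 112.5, 103.7 and 111.1 CPM) than in NoFC ones (log2 fold change −0.306, exact permutation p = 0.0286, adjusted p = 0.946). The highest FR value, 112.5 CPM from 21 UMIs, was nearly equal to the lowest NoFC value, 112.6 CPM from 37 UMIs. *Mt2* was higher in all FR sums (22.15, 16.07, 17.28 and 17.36 CPM) than in NoFR ones (log2 fold change 1.37, exact permutation p = 0.0286, adjusted p = 0.814). With no difference between groups or between libraries, each of the 54 pericyte values has by permutation a probability of at most 0.0286 of groups that do not overlap. A difference between libraries could raise it where 2 groups are spread unlike over the libraries. The share of all genes whose groups did not overlap is not given here. For *S100a13*, NoFC mice lay at 42.62, 26.98, 53.63 and 33.55 CPM and NoFR mice at 79.75, 47.79, 32.26 and 36.91 CPM.

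*S100a6* had an unadjusted p under 0.05 in 3 pairs, each resting on 1 or 2 mice. It was at 9.133, 123.3, 0 and 0 CPM in NoFC, 0, 3.214, 5.811 and 0 in FC, 84.18, 0, 0 and 0 in NoFR and 8.861, 0, 0 and 10.41 in FR mice. The log2 fold change was −3.25 for FC against NoFC (SE 1.05, adjusted p = 0.935, exact permutation p = 0.429), −2.14 for FR against NoFC (adjusted p = 0.787, exact permutation p = 0.714) and 2.85 for NoFR against FC (adjusted p = 0.473, exact permutation p = 1.0). Without the barcodes rich in smooth muscle or stromal markers, each of the 3 turned its sign, to 1.46, 2.07 and −1.48. *S100a10* had 0 UMIs in the pericytes of all 4 FR mice and 2, 4, 3 and 0 UMIs in NoFC mice (adjusted p = 0.823, exact permutation p = 0.143), too few for a fold change.

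Of the listed zinc, copper and S100 partner genes, 1 passed an adjusted p of 0.05 in any of the 12 comparisons of groups. *Slc30a10*, which encodes an exporter of manganese and zinc, was lower in NoFR than NoFC pericytes by a log2 fold change of −0.47 (edgeR, adjusted p = 0.0483). It was 1 of 15 zinc and copper genes tested in that pair, where 61 of all 6377 genes (0.957%) passed. The lists were chosen with earlier results of these data known, and the value of *Slc30a10* under the alternatives is not given here.

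Astrocytes with and without an *Adrb1* UMI were also compared within mice, since the study asked what sets *Adrb1* astrocytes apart. Of 7654 genes, 0.0653% passed an adjusted p of 0.05 and 6.21% an unadjusted p under 0.05, and the count of the 9 genes was 0 by both marks. DESeq2 also called 0. Log2 fold changes ran from −0.152 for *S100a10* to 0.166 for *S100a16*. Given here after their values were seen, *S100a16* was at 197.4 ± 45.69 CPM with *Adrb1* and 174.9 ± 30.62 CPM without (SD, n = 16 mice), higher in 13 of 16 mice. Its adjusted p was 0.838, with a 95% interval of −0.00356 to 0.336. *Mt1* was at 3162 ± 677.7 and 3111 ± 479.2 CPM and higher in 8 of 16 mice.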

How the data were processed

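The authors sequenced 3 pooled 10x gene expression libraries with matching hashtag libraries and deposited raw UMI counts per gene and barcode, with no normalization. The labels name Cell Ranger 3.0 and mm10, whereas the matrix headers name 7.0.0. The genes and lists were chosen with earlier results of these data known. By rule, a gene of the 9 got full statistics in a comparison of groups or *Adrb1* states where its p, adjusted or not, was under 0.05, list genes were named at an adjusted p under 0.05, other family members where 1% of either class had a UMI, and the 3 most alike genes by mean r.

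Classes were set over all barcodes with no doublet removal, and UMIs were summed per class and library and expressed as CPM. For mice, barcodes below 100 detected genes or at 6% mitochondrial UMIs and above were left out, and HTODemux (Seurat 5.3.0, quantile 0.99) gave 1594, 1143 and 1633 singlets by library after hashtags with under 1% of a library's hashtag UMIs were dropped. Mouse sums of at least 10 cells (533460 to 2540787 UMIs in astrocytes, 179205 to 723173 in pericytes) were tested with edgeR 4.0.16 (quasi-likelihood, TMM, filterByExpr, library as a covariate; Benjamini-Hochberg over all genes) in R 4.3.3. *Adrb1* states were tested within mice, with at least 5 cells each. DESeq2 1.42.0, other filters and scalings and leaving out each mouse were alternatives. The tests were also run on simulated counts, whose outcome is not given here. That simulation left out genes as sparse as *S100a10*, *S100a16* and *S100b* in pericytes (18, 6 and 10 UMIs over 16 mice). Low levels carry counting error: several of the 9 genes had under 20 UMIs a mouse in pericytes.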

Additional observations from a re-analysis of the deposited data

Results flagged for a closer look

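Within groups of 4 mice, 4 of 55 sets of values held a mouse far from the other 3 by Dixon's criterion. Chance meets it in about 1 of 20 sets of normally distributed values. Pericyte sets were taken only for genes with an unadjusted edgeR p under 0.05 in a pericyte pair, so they were picked from these data. The rate of 1 in 20 does not hold for picked sets or sparse counts, so 4 of 55 cannot be set against it. All 4 flagged sets were in pericytes. *S100a6* stood at 123.3 CPM in NoFC mouse 2 and at 84.18 CPM in NoFR mouse 1, each the highest of its group. The other 3 NoFR mice had 0 *S100a6* UMIs, and a set of this form always meets the criterion. *Mt1* was highest at 143.0 CPM in NoFR mouse 4, and *S100a13* was lowest at 23.24 CPM in FC mouse 3.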

How the results depend on the processing

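The count of the 9 genes called by a test moved under 1 alternative. That was FC against NoFC in pericytes with no filter on low counts, where 1 gene passed (*S100a6*, log2 fold change −3.21, adjusted p = 0.0157). *S100a6* also turned its sign. Without the marker-rich barcodes its log2 fold change was 1.46 (FC) and 2.07 (FR) relative to NoFC, and −1.48 for NoFR relative to FC. With 1 mouse left out these 3 values ran from −4.69 to −0.465, from −3.42 to 0.701 (without NoFC replicate 2) and from −2.57 (without NoFR replicate 1) to 4.15. *S100a10* in the *Igfbp2* split was −0.00569 among astrocytes above the median ribosomal share, where 7 of the 9 genes were higher in all 3 libraries, against 9 of 9 in the other *Igfbp2* alternatives. *Mt2* in NoFR against NoFC pericytes ran from −1.77 to −1.32 with 1 mouse left out, and *S100a13* in FR against FC from 0.741 to 1.21. With a hashtag quantile of 0.95 that *Mt2* value was −2.57 and with no mitochondrial filter −1.01. Counts over all genes moved more. In astrocytes, 0 genes were called in each pair, and with no low-count filter 21 (FC), 66 (NoFR) and 18 (FR) relative to NoFC, 19 (NoFR) and 16 (FR) relative to FC, and 19 between FR and NoFR. Leaving out 1 mouse gave at most 11. In pericytes, the 61 genes of NoFR against NoFC were 38 with DESeq2, 29 at a hashtag quantile of 0.95 and 35 to 69 with 1 mouse left out. The 22 of NoFR against FC were 10, 6 and 15 to 28 under the same changes, 38 with no low-count filter, 45 with no library term and 33 with no mitochondrial filter. The 3 of FR against NoFC lay between 0 and 11 and the 5 of FR against NoFR between 0 and 16. With no low-count filter, FC against NoFC gave 5 and FR against FC 2 in place of 0. The 5 genes of the *Adrb1* comparison were 0 with DESeq2, with no mouse block, after thinning and in FR mice alone, 91 with no low-count filter and 2 to 11 with 1 mouse left out. The cause of these changes was not tested. Hashtag calls depend on the caller's settings and left most barcodes with no mouse, which limits depth in pericytes. No paired analysis was possible because the mice of different groups share no animal, litter or other pairing in the labels.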
